A study of Mus musculus with 9 samples.

Results

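Described here are 10 genes of the β-catenin pathway in mouse colon after irradiation: Ctnnb1, which encodes β-catenin itself, Apc, Axin1, Axin2 and Gsk3b of the complex that destroys it, Tcf7, Tcf7l2 and Lef1, the DNA-binding factors it works through, and its target genes Myc and Ccnd1. They were taken by symbol from the 33539 genes of the deposited table, as a set put together with earlier results of these data known, and all 10 were found. The 9 mice were wild-type C57BL/6 males, 3 in each of 3 groups, and RNA of their colons was sequenced. IR+CF-2 mice received 13 Gy and the compound CF-2 at 7.5 mg/kg into the peritoneum in 4 doses, given 1 h ahead of irradiation and then 24, 48 and 72 h afterwards. IR mice received 13 Gy, and no vehicle is stated for them. Con mice were not irradiated and received saline or PBS, on which the labels differ. All colons were taken at the 84 h time point. No group received CF-2 without irradiation, so IR+CF-2 differs from Con in irradiation and compound together. The labels also differ on age (6 or 8 weeks) and on whether the abdomen or the whole body was irradiated. CF-2 is a code name for which the labels give no structure, and the series title links β-catenin to CB2 receptor agonism and HoxA10.

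In the absence of a Wnt signal, APC and the AXIN proteins hold β-catenin for phosphorylation by CK1 and GSK3, after which it is degraded. When Wnt proteins engage Frizzled and LRP receptors, β-catenin escapes this step, enters the nucleus and joins TCF/LEF factors on target genes. In the intestinal crypt this pathway keeps stem cells dividing, and the loss of APC is the common starting point of colon tumours. Most control of β-catenin acts on the protein, which RNA levels do not measure.

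The 2 growth targets had the largest changes among those that passed the test, which were all against Con. Myc and Ccnd1 were higher in both irradiated groups than in Con, by 2.58-fold and 3.58-fold in IR and by 2.50-fold and 3.83-fold in IR+CF-2. The feedback inhibitor Axin2 and the factor Tcf7 were also higher in IR+CF-2 than in Con, by 1.38-fold and 1.74-fold. No change in Ctnnb1, Apc, Axin1, Gsk3b, Tcf7l2 or Lef1 passed the test in any comparison, and none of the 10 genes passed it between IR+CF-2 and IR, where 0.302% of all tested genes did.

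Each library held 34.4 to 44.3 M counts. Libraries differed beyond their labels. On the first principal component, with 37.7% of the variance, IR 4 lay at 23.9 beside -23.9 and -30.0 for IR 2 and IR 3, while the Con libraries lay between 61.4 and 70.5. On the second component (23.9% of the variance) IR+CF-2 2 lay at 98.1 and the next library, Con 2, at 32.3. Hoxa13, a marker of the hind end of the gut, stood at 57.3, 74.9 and 56.8 CPM in IR+CF-2, at 2.73, 1.71 and 0.834 CPM in IR and at 43.2, 1.05 and 8.07 CPM in Con, so position along the colon and treatment with CF-2 cannot be told apart. Epithelial markers summed to 18190 to 27382 CPM in IR+CF-2, 29825 to 39667 CPM in IR and 30645 to 36644 CPM in Con, and fibroblast markers to 1557 to 3177 CPM in IR+CF-2, 532 to 1394 CPM in IR and 656 to 1339 CPM in Con. Macrophage markers summed to 250 to 552 CPM in IR+CF-2, 160 to 277 CPM in IR and 136 to 180 CPM in Con, and neutrophil markers to 11.1 to 35.6 CPM in IR+CF-2, 1.03 to 5.88 CPM in IR and 0.807 to 1.64 CPM in Con. Genes typical of small intestine summed to 10.4 to 155 CPM in IR+CF-2, 214 to 619 CPM in IR and 515 to 727 CPM in Con. The part of these cells or regions in the changes below was not tested. Of 12 known p53 targets 8 rose in IR and 9 in IR+CF-2, both against Con, beside 2.37% and 11.2% of all genes higher. All 12 estimates were above 0 in IR and 10 in IR+CF-2, where the lowest was -0.57. Levels below are CPM, counts scaled to the size of the library after TMM correction. Fold changes are log2 estimates from edgeR ± an approximate standard error, with an adjusted p under 0.05 called. That error was derived as the size of the log2 estimate over the square root of its F statistic.

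**Figure D1:**
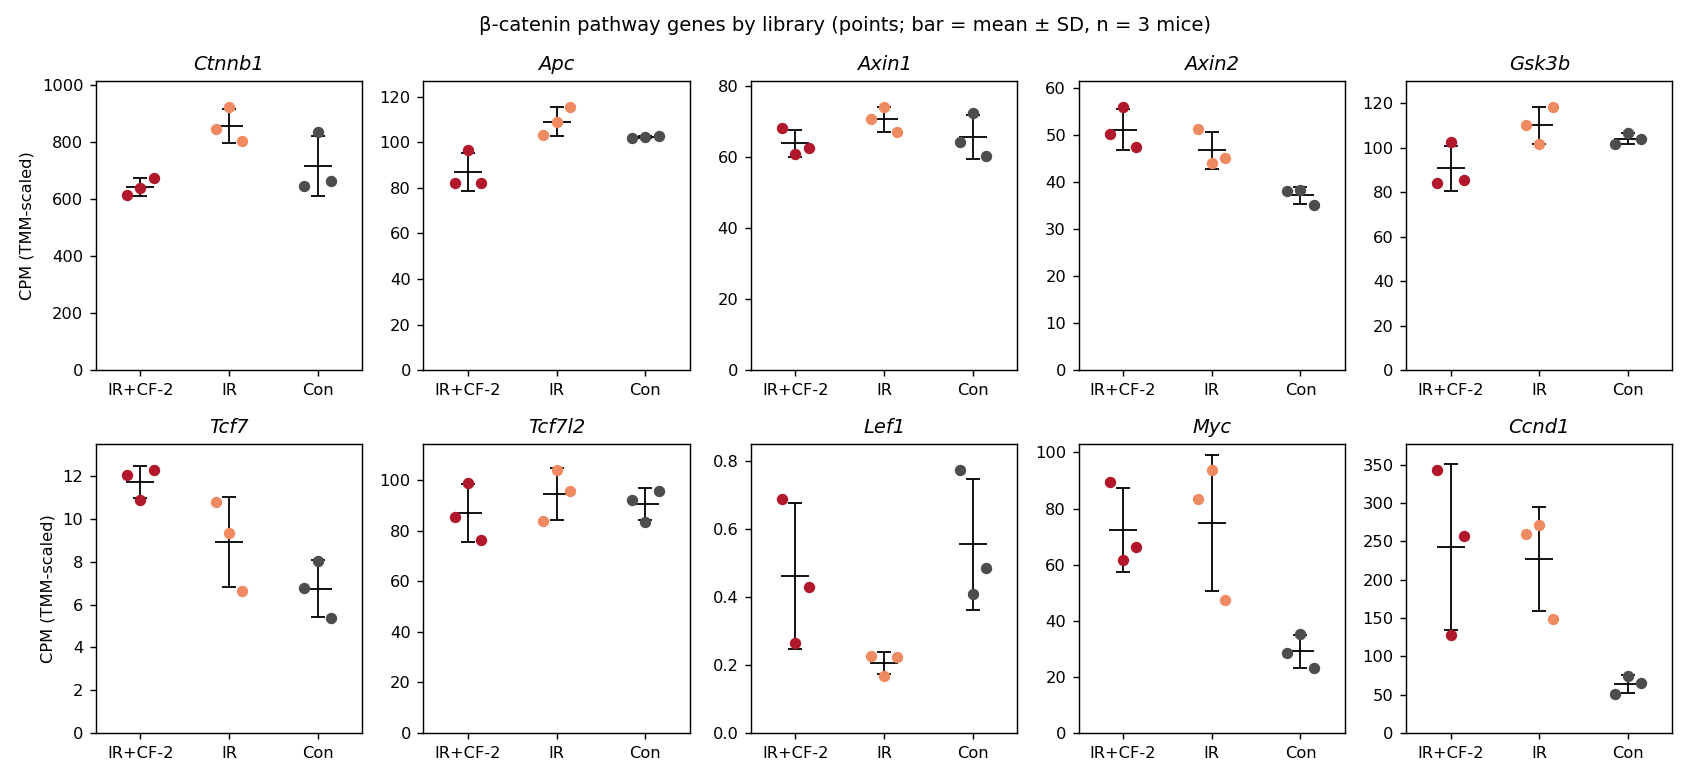
Level of each of the 10 genes in CPM (vertical axis, from 0) in every library (points), with the mean and SD of 3 mice per group. Myc and Ccnd1 in the irradiated groups lie above every Con library, and Ctnnb1 is lower in the 3 IR+CF-2 libraries than in the 3 IR libraries.

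Ctnnb1 (chromosome 9, 120929216 to 120960507 on GRCm38) had 615, 641 and 675 CPM in IR+CF-2, 848, 923 and 806 CPM in IR and 648, 837 and 663 CPM in Con. The IR+CF-2 libraries all lay below the IR libraries, whereas Con overlapped IR+CF-2 through Con 2 and Con 4 and IR through Con 3. The change between IR+CF-2 and IR was -0.42 ± 0.14 and did not pass the test (edgeR adjusted p = 0.224, unadjusted p = 0.015). IR against Con gave 0.26 ± 0.14 (adjusted p = 0.281) and IR+CF-2 against Con -0.15 ± 0.14 (adjusted p = 0.465). Each group serves in a pair of comparisons, so the 3 values share libraries and are only set side by side. β-catenin also sits at cell junctions with E-cadherin (Cdh1), and Ctnnb1 per 100 CPM of Cdh1 was 60.8, 50.6 and 73.0 in IR+CF-2, 67.6, 63.5 and 69.8 in IR and 57.1, 69.6 and 56.9 in Con. By that ratio all 3 groups overlapped. With the level of Hoxa13 as a further term, the Ctnnb1 change between IR+CF-2 and Con turned to 0.041.

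In FPKM, which divides by transcript length and lets genes be compared with each other, Ctnnb1 was the highest of the 10 in every group, at 130 ± 6.67 in IR+CF-2, 162 ± 16.4 in IR and 134 ± 12.8 in Con (SD, n = 3). Lef1 was the lowest, at 0.0548 ± 0.0252 FPKM in IR+CF-2, 0.0229 ± 0.00387 FPKM in IR and 0.0623 ± 0.0244 FPKM in Con. Below Ctnnb1 the order differed between groups. Ccnd1 and Myc held ranks 2 and 3 in IR+CF-2 (53.9 ± 23.8 and 27.9 ± 5.55 FPKM) and in IR (47.6 ± 16.0 and 27.2 ± 9.66 FPKM), whereas in Con Axin1 was second at 16.7 ± 1.01 FPKM, ahead of Ccnd1 at 13.0 ± 1.81 and Myc at 10.4 ± 1.78. The ranges of Ccnd1 and Myc overlapped in every group. In Con the ranges of Myc and Gsk3b, of Gsk3b and Tcf7l2 and of Axin2 and Apc also overlapped. In IR those of Myc (16.16 to 33.8 FPKM) and Axin1 (16.20 to 19.1 FPKM) and of Gsk3b and Tcf7l2 did so. In IR+CF-2 those of Tcf7l2 and Axin2 and of Axin2 and Gsk3b did so. TMM scaling changed none of these ranks, but it multiplies all genes of a library by the same factor and so could hardly change them.

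Of the destruction complex, the scaffold gene Apc (chromosome 18, 34220924 to 34322552) had 82.2, 96.5 and 82.2 CPM in IR+CF-2, 103, 109 and 115 CPM in IR and 102, 102 and 103 CPM in Con. Every IR+CF-2 library was below every library of the other 2 groups. The changes were -0.33 ± 0.10 against IR (edgeR adjusted p = 0.199) and -0.23 ± 0.10 against Con (adjusted p = 0.138). Neither passed with all libraries. Without IR+CF-2 2 both did, at -0.41 (adjusted p = 0.0473) and -0.32 (adjusted p = 0.0234). Leaving out that library also raised the calls over all genes, from 58 to 597 against IR and from 3677 to 6721 against Con. IR against Con gave 0.09 ± 0.10 (adjusted p = 0.607).

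Axin1 (chromosome 17, 26138688 to 26195811), the scaffold that limits assembly of the complex, had 68.1, 61.0 and 62.5 CPM in IR+CF-2, 70.8, 74.1 and 67.1 CPM in IR and 64.3, 72.5 and 60.3 CPM in Con. The groups overlapped in all 3 comparisons, and the changes lay between -0.15 and 0.10 (adjusted p from 0.569 to 0.821). Gsk3b (chromosome 16, 38089001 to 38246084), a kinase that marks β-catenin for degradation, had 84.3, 102.5 and 85.6 CPM in IR+CF-2, 110, 102 and 118 CPM in IR and 102, 107 and 104 CPM in Con. IR+CF-2 1 and 3 were below all other libraries and IR+CF-2 2 was among them. Gsk3b gave -0.28 ± 0.11 in IR+CF-2 against IR (adjusted p = 0.303), -0.20 ± 0.11 in IR+CF-2 against Con (adjusted p = 0.238) and 0.08 ± 0.11 in IR against Con (adjusted p = 0.693). Without IR+CF-2 2 the change in IR+CF-2 against Con passed, at -0.29 (adjusted p = 0.0404), and without IR 4 as well it was -0.30 (adjusted p = 0.0195). Over all genes 3677 were called in that comparison with all libraries, 6721 without IR+CF-2 2 and 7838 without both. Gsk3b supplied 27.4 to 37.6% of the summed FPKM of the 2 GSK3 kinases in IR+CF-2, 32.1 to 36.9% in IR and 33.0 to 36.2% in Con, the rest being Gsk3a.

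Axin2 (chromosome 11, 108920349 to 108950783) encodes the second AXIN scaffold and is itself switched on by β-catenin, which makes it a widely used readout of the pathway. It had 50.3, 56.0 and 47.5 CPM in IR+CF-2, 51.4, 44.1 and 45.2 CPM in IR and 38.2, 38.4 and 35.1 CPM in Con. All 6 irradiated libraries were above the 3 Con libraries, and the irradiated groups overlapped each other. Axin2 rose by 0.46 ± 0.11 in IR+CF-2 against Con (edgeR adjusted p = 0.0239). IR against Con gave 0.33 ± 0.11 and did not pass (adjusted p = 0.112), and IR+CF-2 against IR gave 0.13 ± 0.11 (adjusted p = 0.634). The share of Axin2 in the summed FPKM of both AXIN genes was 33.9, 39.0 and 34.6% in IR+CF-2, 33.5, 29.3 and 31.9% in IR and 29.2, 26.9 and 28.8% in Con. Every irradiated library thus had a larger Axin2 share than any Con library, by as little as 29.3% in IR 3 against 29.2% in Con 2. The IR+CF-2 call was lost without IR+CF-2 1 (adjusted p = 0.0677), Con 2 (0.0716), Con 3 (0.0663) or Con 4 (0.0960), with changes between 0.42 and 0.48. Without IR+CF-2 2 the IR change, at 0.33, passed (adjusted p = 0.0420), in a fit that called 3085 genes in IR against Con instead of 616.

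The bases before the Axin2 start site are shown because Axin2 is the member that reports on β-catenin most directly. The window is chr11:108920099-108920348 on the forward strand of GRCm38.p6, from RefSeq, and its last base lies next to the annotated gene start.
Axin2: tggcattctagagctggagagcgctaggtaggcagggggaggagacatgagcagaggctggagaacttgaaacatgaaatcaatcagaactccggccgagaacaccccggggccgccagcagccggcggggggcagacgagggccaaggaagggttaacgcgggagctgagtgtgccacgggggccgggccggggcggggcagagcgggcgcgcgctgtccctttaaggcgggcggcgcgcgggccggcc
Neither a TCF/LEF word (CTTTGAT or CTTTGAA, searched on both strands) nor the MYC-binding E-box (CACGTG, the same on both strands) occurs in these 250 bases, which are therefore printed without capitals. Windows before RefSeq start sites were searched for 6 of the 10 genes (Ctnnb1, Axin2, Gsk3b, Tcf7, Tcf7l2 and Lef1), 12 sites in all. The remaining members were not searched, so the counts below do not cover them. Of the 12 windows 0 held the TCF/LEF word and 1, at an internal start site of Lef1, held the E-box, against 7.48% and 6.02% of the 32851 windows in the table. This says only that the letters are missing from these windows.

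Among the DNA-binding factors Tcf7l2 (chromosome 19, 55741820 to 55933654), the main TCF of intestinal epithelium, had 85.5, 99.0 and 76.5 CPM in IR+CF-2, 83.7, 104 and 95.6 CPM in IR and 92.2, 83.6 and 95.9 CPM in Con. The groups overlapped throughout, with changes from -0.12 to 0.06 (edgeR adjusted p from 0.726 to 0.803). It made up 41.8 to 60.4% of the summed FPKM of the 4 TCF/LEF genes in IR+CF-2, 64.5 to 75.8% in IR and 66.7 to 71.1% in Con. The lowest share was that of IR+CF-2 2, in which Tcf7l1, a factor that mostly represses, held 44.5% of the family. Tcf7l1 held 14.1 and 16.4% in IR+CF-2 1 and 3, 5.42 to 10.8% in IR and 14.0 to 16.8% in Con. Tcf7l1 did not pass the test (2.19 ± 0.61, adjusted p = 0.163 for IR+CF-2 against IR). IR+CF-2 2 was also the library with the highest summed fibroblast markers, at 3177 CPM against 1557 and 1882 CPM in the other IR+CF-2 libraries, and the part of these cells in the Tcf7l1 level was not tested.

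Tcf7 (chromosome 11, 52252371 to 52283014) encodes TCF1, known from T cells as well as from crypt cells. It had 12.0, 10.9 and 12.3 CPM in IR+CF-2, 10.8, 9.36 and 6.65 CPM in IR and 6.77, 8.05 and 5.38 CPM in Con. IR+CF-2 was above every other library, by a narrow margin over IR 2, and IR 4 lay within the Con range. Tcf7 rose by 0.80 ± 0.23 in IR+CF-2 against Con (edgeR adjusted p = 0.0392). The change was 0.39 ± 0.22 against IR (adjusted p = 0.46) and 0.41 ± 0.23 in IR against Con (adjusted p = 0.303). The call against Con was lost without any of IR+CF-2 1 (adjusted p = 0.110), IR+CF-2 3 (0.107), IR 3 (0.0655), Con 2 (0.108), Con 3 (0.0630) or Con 4 (0.140), with changes between 0.66 and 0.95.

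Lef1 (chromosome 3, 131110471 to 131224356), which marks T cell precursors and some progenitors, was close to the limit of detection. Its raw counts were 29, 11 and 20 in IR+CF-2, 8, 6 and 8 in IR and 32, 16 and 18 in Con. In CPM these were 0.690, 0.264 and 0.430 in IR+CF-2, 0.225, 0.168 and 0.222 in IR and 0.774, 0.409 and 0.484 in Con. The IR libraries were the lowest, below every library of both other groups. Neither the IR change against Con (-1.43 ± 0.47, edgeR adjusted p = 0.116) nor that of IR+CF-2 against IR (1.16 ± 0.48, adjusted p = 0.309) passed the test, and IR+CF-2 against Con gave -0.27 ± 0.44 (adjusted p = 0.706).

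Because both genes are also used by lymphocytes, they were set beside 16 T and NK cell markers, none at 0 in every library. These summed to 16.9, 13.2 and 13.6 CPM in IR+CF-2, 15.2, 16.6 and 18.2 CPM in IR and 36.9, 66.3 and 47.1 CPM in Con. Of the 15 tested 12 fell in IR+CF-2 against Con, beside 7.95% of all genes lower. In IR against Con 5 fell, beside 0.845% of all genes lower. Per 100 CPM of these markers, Tcf7 stood at 71.1, 82.7 and 90.2 CPM in IR+CF-2, 70.9, 56.5 and 36.4 CPM in IR and 18.4, 12.1 and 11.4 CPM in Con. Tcf7 was higher and the summed T and NK markers were lower in IR+CF-2 than in Con. Lef1 per 100 CPM of the markers was 4.07, 2.00 and 3.16 in IR+CF-2, 1.48, 1.02 and 1.22 in IR and 2.10, 0.617 and 1.03 in Con. By this ratio IR and Con overlapped, and IR+CF-2 lay above IR and overlapped Con. The IR values rest on 6 to 8 Lef1 counts per library. The part of lymphocytes in the Tcf7 and Lef1 levels was not tested. In whole tissue, fewer cells of a type and less RNA per cell cannot be told apart.

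**Figure D2:**
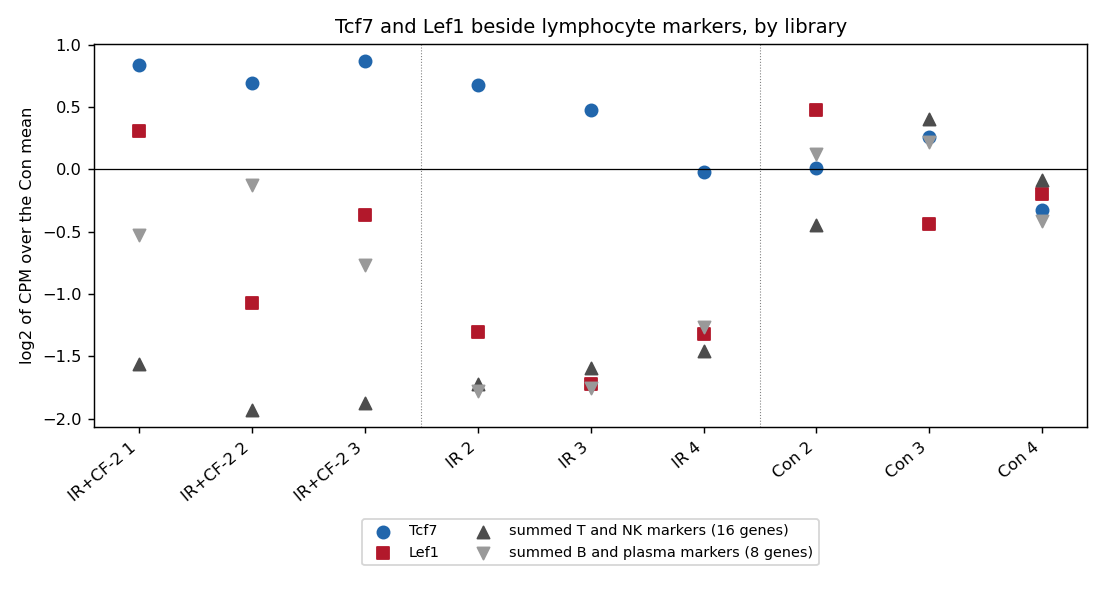
Tcf7, Lef1 and the summed T and NK and B and plasma cell markers in each library, as log2 of the CPM over the mean of the Con libraries (vertical axis). Tcf7 is above the summed T and NK markers in all 6 irradiated libraries, and Lef1 and both marker sums are below the Con mean in the 3 IR libraries.

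The targets Myc and Ccnd1 were the members called in both comparisons with Con. Myc (chromosome 15, 61985391 to 61990374) encodes a transcription factor that drives ribosome production and cell growth. It had 89.5, 61.5 and 66.4 CPM in IR+CF-2, 83.5, 93.7 and 47.5 CPM in IR and 28.5, 35.3 and 23.3 CPM in Con. All irradiated libraries were above all Con libraries, with IR 4 the nearest to them, and the irradiated groups overlapped. Myc rose by 1.32 ± 0.27 in IR+CF-2 against Con (edgeR adjusted p = 0.0164) and by 1.37 ± 0.27 in IR against Con (adjusted p = 0.0401). Between IR+CF-2 and IR it differed by -0.05 ± 0.26 (adjusted p = 0.952), an estimate that took either sign over 20 alternatives, from -0.40 to 0.21.

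Ccnd1 (chromosome 7, 144929931 to 144939925) encodes cyclin D1, which with CDK4 or CDK6 moves cells out of G1. It had 343, 128 and 257 CPM in IR+CF-2, 260, 272 and 149 CPM in IR and 51.0, 74.2 and 64.9 CPM in Con. Again every irradiated library exceeded every Con library, and IR+CF-2 2 and IR 4 were the lowest of the irradiated ones. Ccnd1 rose by 1.94 ± 0.37 in IR+CF-2 against Con (edgeR adjusted p = 0.0136) and by 1.84 ± 0.36 in IR against Con (adjusted p = 0.0405), and the groups overlapped between IR+CF-2 and IR (0.10 ± 0.35, adjusted p = 0.927). Ccnd1 shares 818 exon bases with LTO1 on the opposite strand, and the strand used in counting is not stated. LTO1 stood at 18.8 to 23.2 CPM in IR+CF-2, 23.7 to 27.6 CPM in IR and 25.6 to 26.5 CPM in Con.

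The IR calls for these 2 genes depended on single libraries. The adjusted p of Myc was 0.149 without Con 2, 0.0901 without Con 3, 0.142 without Con 4, 0.130 without IR 2, 0.226 without IR 3 and 0.0609 without IR+CF-2 3. That of Ccnd1 was 0.156 without Con 2, 0.102 without Con 3, 0.137 without Con 4, 0.130 without IR 2, 0.224 without IR 3 and 0.0623 without IR+CF-2 3. The changes stayed between 1.15 and 1.61 for Myc and between 1.66 and 2.07 for Ccnd1 over all 20 alternatives. The IR+CF-2 calls were lost without Con 2 (adjusted p = 0.0579 for Myc and 0.0531 for Ccnd1) or Con 4 (0.0668 and 0.0552), and for Myc also without IR+CF-2 1 (0.0565).

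**Figure D3:**
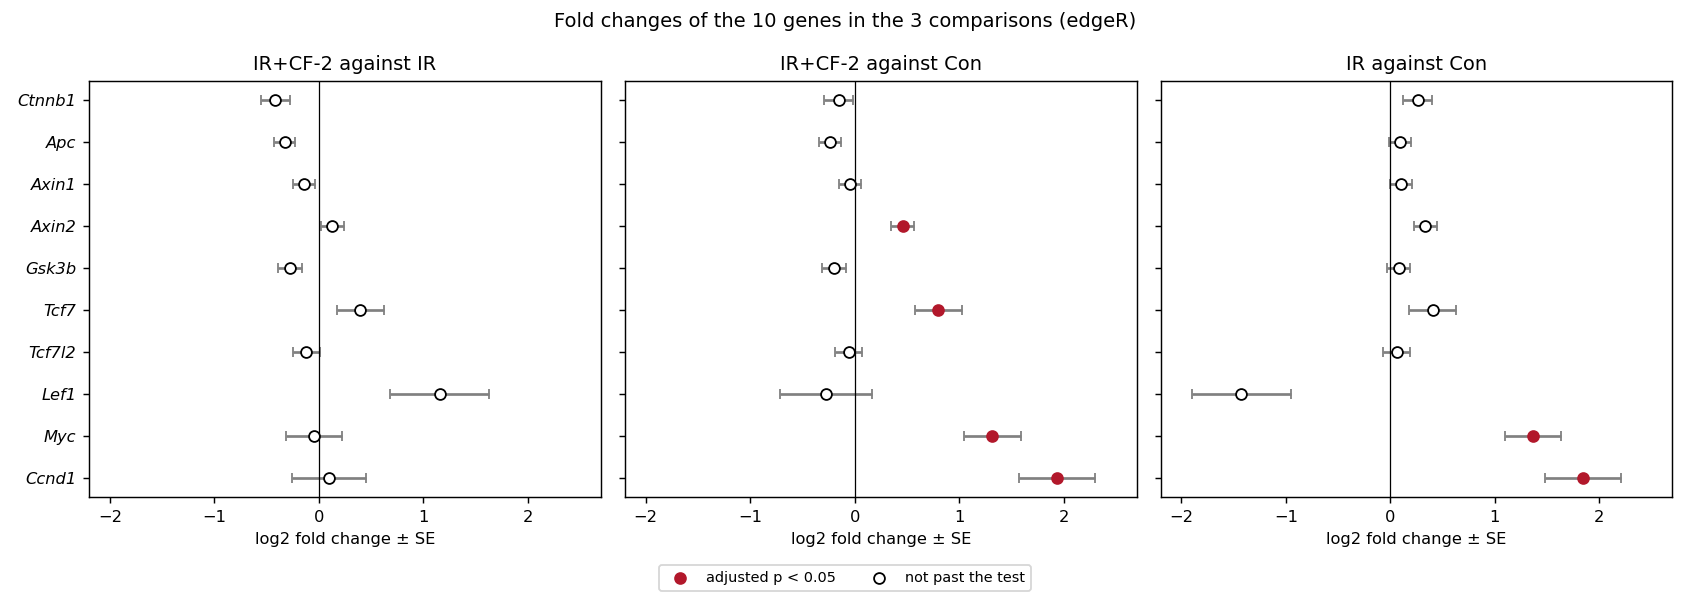
Log2 fold change from edgeR ± approximate standard error (horizontal axis) of the 10 genes in the 3 comparisons. Filled points passed an adjusted p of 0.05. Ccnd1, Myc, Axin2 and Tcf7 passed in IR+CF-2 against Con, Ccnd1 and Myc in IR against Con, and no gene in IR+CF-2 against IR.

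Counted together, 2 of the 10 genes rose and 0 fell in IR against Con, where 3.21% of all 19174 tested genes were called, 2.37% higher and 0.845% lower. Against Con, 4 rose and 0 fell in IR+CF-2, beside 19.2% of all genes called, 11.2% higher and 7.95% lower. Between IR+CF-2 and IR edgeR called 0 of the 10, beside 0.302% of all genes (0.0574% higher and 0.245% lower). An unadjusted p under 0.05 was found for 4 of the 10, beside 14.6% of all genes, and DESeq2 also called 0, beside 5.18% of all genes. The 3 libraries of each group did not overlap for 5 of the 10 genes in IR against Con, for 4 in IR+CF-2 against IR and for 5 in IR+CF-2 against Con. The corresponding shares of all tested genes were 36.3%, 17.6% and 39.8%. The members' median change was 0.18 in IR against Con, -0.08 in IR+CF-2 against IR and -0.05 in IR+CF-2 against Con, beside medians of 0.01, 0.02 and 0.02 over all genes in these comparisons. Hoxa13 was higher in every IR+CF-2 library than in any other, so a term for it cannot tell position from treatment with CF-2. With the log2 CPM of Hoxa13 as a further term, 0 members were called in any comparison, while the changes called without it kept about their size and had larger standard errors. In IR+CF-2 against Con they were 2.16 ± 0.57 for Ccnd1 (adjusted p = 0.156), 1.40 ± 0.41 for Myc (0.167), 0.43 ± 0.16 for Axin2 (0.221) and 0.85 ± 0.34 for Tcf7 (0.232). In IR against Con they were 1.72 ± 0.46 for Ccnd1 (0.148) and 1.32 ± 0.34 for Myc (0.137).

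Genes of dividing cells were also higher in the irradiated libraries. The summed level of 12 proliferation genes was 2079, 989 and 1947 CPM in IR+CF-2, 1571, 1520 and 1444 CPM in IR and 657, 675 and 814 CPM in Con. This list and those below were chosen with earlier results of these data known. Of the 12 genes 11 rose in IR+CF-2 against Con, beside 11.2% of all genes higher. In IR against Con 2 of 12 rose (Mcm3 and Mcm5, parts of the replication helicase, by 1.54 and 1.40), beside 2.37% of all genes higher. The 11 became 2 without Con 2 or IR+CF-2 1, 4 without Con 3 or IR+CF-2 3 and 5 without Con 4. The 2 became 0 without Con 2, Con 3, Con 4, IR 2, IR 3 or IR+CF-2 3. Leaving out IR+CF-2 2 made them 11, while the calls over all genes in IR against Con went from 616 to 3085. Per 100 CPM of that sum, Myc was 4.30, 6.22 and 3.41 CPM in IR+CF-2, 5.32, 6.17 and 3.29 CPM in IR and 4.35, 5.23 and 2.86 CPM in Con, so on this scale the groups overlapped. Ccnd1 was 16.5, 12.9 and 13.2 CPM in IR+CF-2, 16.6, 17.9 and 10.3 CPM in IR and 7.77, 11.0 and 7.97 CPM in Con, which left IR+CF-2 above Con without overlap and IR 4 within the Con range. The part of cell number in either change was not tested. With the Hoxa13 term no gene of the proliferation list or of the pathway lists below was called in any comparison. Hoxa13 itself was higher in every IR+CF-2 library than in any IR or Con library. The term therefore cannot tell position from treatment with CF-2. The size of the log2 change with the term lay within 1.5 times of that without it in 77 of the 79 calls on these lists, with Cdk4 counted on 2 lists. The exceptions were Rspo3 and Sfrp1 in IR+CF-2 against Con, at 0.92 with the term against 1.63 without it and at 0.78 against 1.57.

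**Figure D4:**
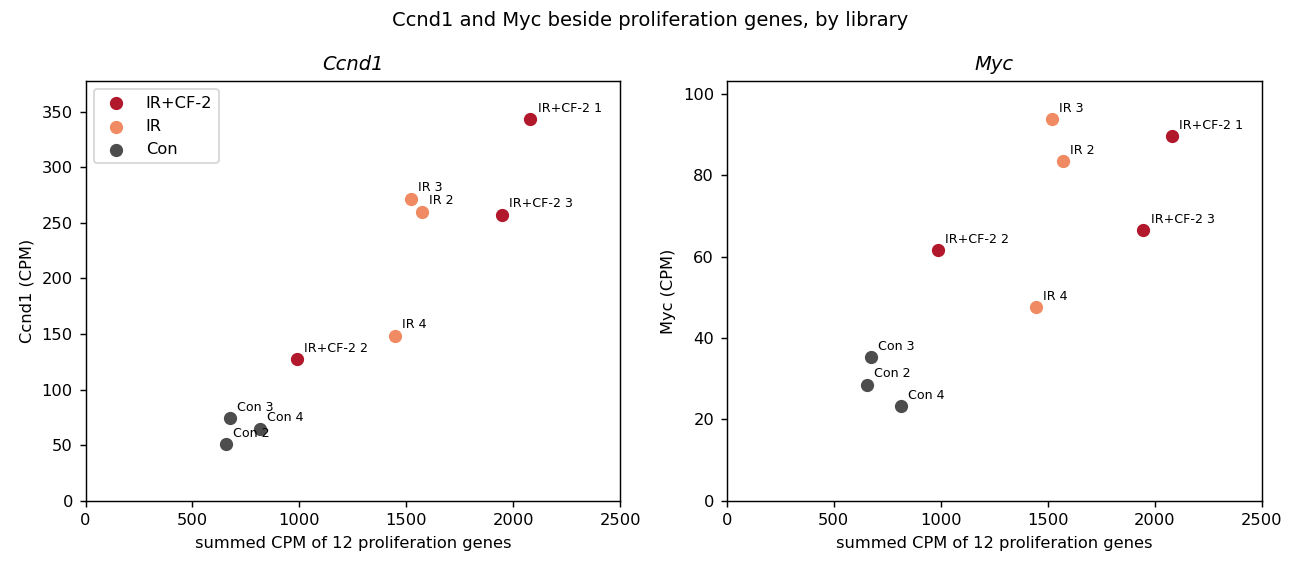
Level of Ccnd1 (left) and Myc (right) in CPM against the summed CPM of 12 proliferation genes in each of the 9 libraries. The Con libraries sit at the lower left with sums of 657 to 814 CPM, and IR+CF-2 2, at 989 CPM, is the irradiated library nearest to them.

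Within its family, Myc took a larger share in every irradiated library than in Con, and Ccnd1 did so in all but IR+CF-2 2. Ccnd1 made up 55.8, 28.5 and 54.1% of the summed FPKM of the 3 D-type cyclins in IR+CF-2, 49.8, 52.3 and 58.1% in IR and 33.0, 30.4 and 40.5% in Con. The IR libraries were all above Con, and IR+CF-2 2 was below all of Con, with 65.6% of its D cyclin level from Ccnd2. Myc made up 87.5, 73.3 and 84.5% of the 3 MYC genes in IR+CF-2, 86.5, 88.7 and 75.0% in IR and 67.3, 72.4 and 68.3% in Con, with IR+CF-2 2 nearest to Con 3. The rest was almost all Mycl, since Mycn stayed at or below 4.28% in every library.

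**Figure D5:**
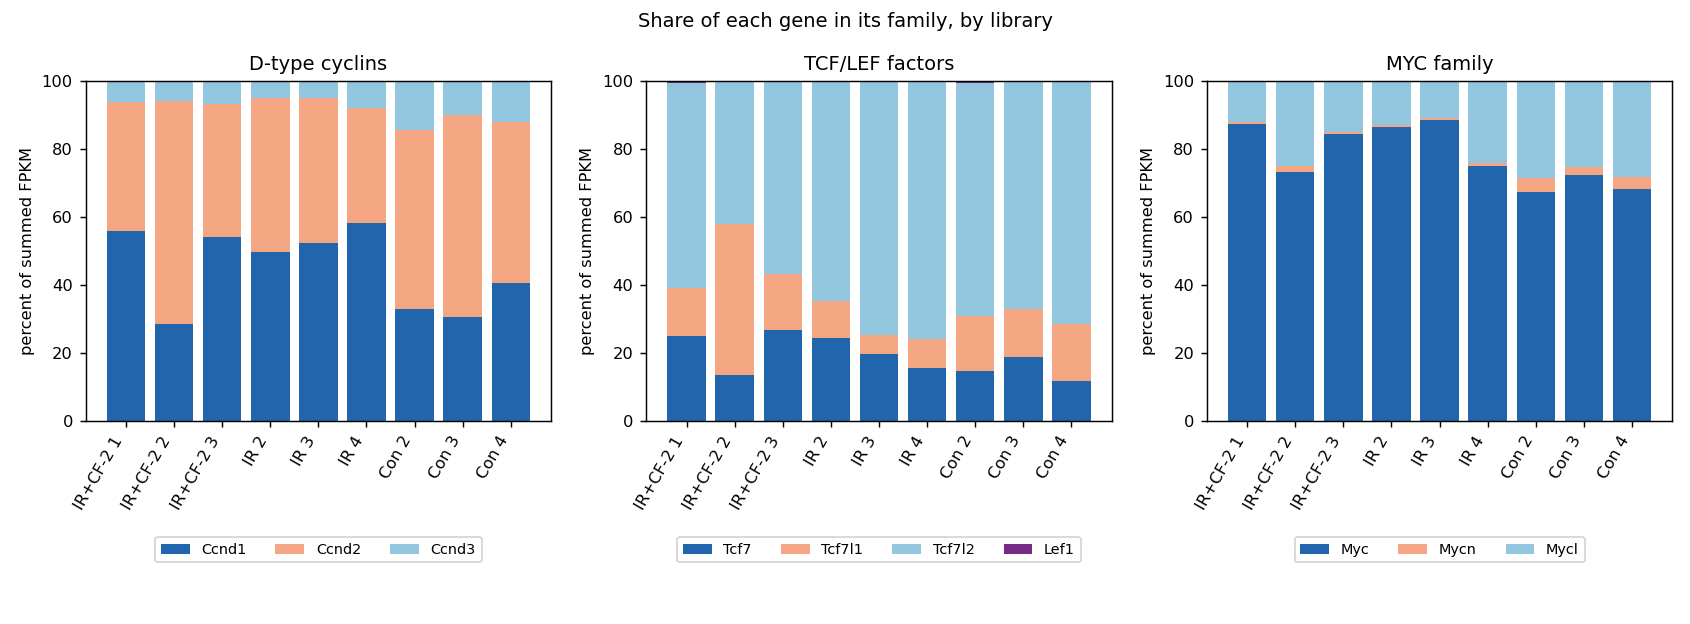
Share of each gene in the summed FPKM (percent, vertical axis) of the D-type cyclins, the TCF/LEF factors and the MYC family in each library. Ccnd1 and Myc take larger shares in the IR than in the Con libraries, and IR+CF-2 2 differs from IR+CF-2 1 and 3 by more Ccnd2 and more Tcf7l1.

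Other targets of β-catenin moved mostly upward against Con. Of 19 tested, 9 rose and 0 fell in IR+CF-2 against Con, beside 11.2% of all genes higher. In IR against Con 7 rose and 0 fell, beside 2.37% of all genes higher. Between IR+CF-2 and IR 0 of the 19 passed, beside 0.302% of all genes. The median was 0.68 in IR+CF-2 against Con, 0.77 in IR against Con and -0.01 in IR+CF-2 against IR. In IR+CF-2 against IR 3 of the 19 had an unadjusted p under 0.05, beside 14.6% of all genes. DESeq2 called 1 there, beside 5.18% of all genes. The 9 that rose in IR+CF-2 against Con included Ascl2, a stem cell transcription factor (9.68 ± 2.32 against 4.05 ± 1.07 CPM, adjusted p = 0.0243), Sox9, a progenitor factor (55.0 ± 11.8 against 34.8 ± 3.39 CPM, adjusted p = 0.0250), and the receptors Ephb3 and Ephb2, which hold crypt cells in place (1.13 ± 0.20, adjusted p = 0.0117, and 0.68 ± 0.21, adjusted p = 0.0484). Tiam1, an exchange factor for Rac, rose by 1.10 ± 0.16 (adjusted p = 0.0082), and Met, the receptor of hepatocyte growth factor, by 0.52 ± 0.14 (adjusted p = 0.0382). Birc5, an inhibitor of apoptosis needed for mitosis, and Fosl1, an AP-1 subunit, rose by 1.34 ± 0.38 and 3.28 ± 0.81, and the protease Mmp7 by 4.59 ± 1.19. Birc5 and Mmp7 overlapped between the groups, and Mmp7 had 37.8 ± 35.9 CPM in IR+CF-2 against 1.57 ± 0.28 CPM in Con. The 9 became 1 without Con 4, 2 without Con 2, 3 without IR+CF-2 3, 4 without Con 3 or IR+CF-2 1, 5 without IR 3 and 6 without IR 2. Without IR 4 and IR+CF-2 2 together 11 rose and 1 fell, and 7838 of all genes were called instead of 3677.

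In IR against Con the 7 that rose were Tiam1 (1.21 ± 0.16, edgeR adjusted p = 0.0233), the BMP pseudoreceptor Bambi (0.99 ± 0.18, adjusted p = 0.0353), Sox9 (0.77 ± 0.16, adjusted p = 0.0436), Met (0.69 ± 0.14, adjusted p = 0.0437), the hyaluronan receptor Cd44 (211 ± 63.9 against 78.7 ± 4.01 CPM, adjusted p = 0.0450), Ephb3 (0.92 ± 0.20, adjusted p = 0.0471) and Mmp7 (71.6 ± 47.6 against 1.57 ± 0.28 CPM, adjusted p = 0.0498). None of the 7 was called without Con 2, Con 3, Con 4, IR 2 or IR 3, and 1 without IR+CF-2 3, whereas 13 targets rose without IR+CF-2 2. Leaving out IR+CF-2 2 also raised the calls over all genes in this comparison from 616 to 3085. Bambi and Cd44 were not called in IR+CF-2 against Con (0.53 ± 0.18 and 0.93 ± 0.30, adjusted p = 0.0695 and 0.0605). Between IR+CF-2 and IR, Cd44 gave -0.50 ± 0.30 (adjusted p = 0.481). The smallest adjusted p among these targets for IR+CF-2 against IR were those of Sp5, a repressor induced by β-catenin (0.931 ± 0.743 against 3.75 ± 1.73 CPM, adjusted p = 0.189), and of Bambi (7.86 ± 0.28 against 10.8 ± 1.91 CPM, adjusted p = 0.294).

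Among 20 genes known to be driven by MYC, 17 rose and 0 fell in IR+CF-2 against Con, beside 11.2% of all genes higher. In IR against Con 5 rose and 0 fell, beside 2.37% of all genes higher. Between IR+CF-2 and IR 0 of the 20 passed, beside 0.302% of all genes. An unadjusted p under 0.05 was found there for 0, beside 14.6% of all genes, and DESeq2 called 0, beside 5.18%. The median was 1.14 in IR+CF-2 against Con, 1.02 in IR against Con and 0.22 in IR+CF-2 against IR. The increases in IR+CF-2 against Con included Cad and Srm, enzymes of pyrimidine and polyamine synthesis, at 2.11 ± 0.33 and 2.11 ± 0.41 (edgeR adjusted p = 0.0094 and 0.0144). The nucleolar genes Gnl3, Nolc1, Nop56, Ncl, Npm1, Ddx21, Nop58, Fbl, Wdr43, Bop1 and Rrp9 rose by 1.01 to 1.63, and Pa2g4, Polr1b, Eif4a1 and Cdk4 by 0.95 to 1.43. The 5 in IR against Con were Cad (1.68 ± 0.33, adjusted p = 0.0395), Gnl3 (1.45 ± 0.26, adjusted p = 0.0353), Nop56 (1.33 ± 0.28, adjusted p = 0.0454), Cdk4 (0.93 ± 0.14, adjusted p = 0.0270) and Polr1b (0.91 ± 0.20, adjusted p = 0.0469). The summed level of the 20 genes was 7298, 3583 and 6940 CPM in IR+CF-2, 5286, 5819 and 4412 CPM in IR and 3285, 3377 and 3178 CPM in Con. IR+CF-2 2 was again the irradiated library nearest to Con, and without it 18 of the 20 rose in both comparisons with Con. Calls over all genes then went from 616 to 3085 in IR against Con and from 3677 to 6721 in IR+CF-2 against Con. The 5 calls in IR against Con became 0 without Con 2, Con 3, Con 4, IR 2, IR 3 or IR+CF-2 3 and 11 without IR 4. Leaving out IR 4 gave 1191 calls over all genes. The 17 in IR+CF-2 against Con became 3 without Con 2 or Con 4, 5 without IR+CF-2 1, 7 without IR+CF-2 3 and 10 without Con 3. Of the dimer partners and rivals of MYC, 1 of 10 passed in IR+CF-2 against Con, beside 19.2% of all genes. It was the antagonist Mxi1 (59.6 ± 7.06 against 99.5 ± 8.47 CPM, -0.74 ± 0.15, adjusted p = 0.0163). In IR against Con and in IR+CF-2 against IR 0 of 10 passed, beside 3.21% and 0.302% of all genes. Each of these comparisons had 1 unadjusted p under 0.05, beside 23.9% and 14.6% of all genes. DESeq2 called 1 of the 10 in IR against Con, beside 11.9% of all genes. It called 0 in IR+CF-2 against IR, beside 5.18%. Mycn gave -1.39 ± 0.47 in IR against Con (adjusted p = 0.119) and Mxi1 -0.59 ± 0.15 in IR+CF-2 against IR (adjusted p = 0.141).

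Of 19 tested partners and inhibitors of the D cyclins, 8 rose and 3 fell in IR+CF-2 against Con, beside 11.2% of all genes higher and 7.95% lower. In IR against Con 3 rose and 0 fell, beside 2.37% of all genes higher. In IR+CF-2 against IR 1 fell, beside 0.245% of all genes lower. The kinase Cdk4 had 134 ± 24.8 CPM in IR+CF-2, 132 ± 4.84 CPM in IR and 69.5 ± 3.87 CPM in Con, and rose in both comparisons with Con. Cdk6 rose in IR against Con by 0.76 ± 0.15 (edgeR adjusted p = 0.0398). The others that rose in IR+CF-2 against Con were Ccne1, Ccne2, E2f1, Cdk2, Ccnd3 and E2f3, by 0.56 to 1.56, and the inhibitor Cdkn1a, by 0.74. Those that fell were the inhibitors Cdkn2b (-1.48 ± 0.38, adjusted p = 0.0303), Cdkn1c (-0.88 ± 0.19, adjusted p = 0.0182) and Cdkn1b (-0.82 ± 0.21, adjusted p = 0.0303). Of the 19 partners 4 had an unadjusted p under 0.05 between IR+CF-2 and IR, beside 14.6% of all genes. DESeq2 called 1 there, beside 5.18% of all genes. Cdkn1c, which encodes the CDK inhibitor p57, was the gene of the pathway lists that passed between IR+CF-2 and IR. It had 3.73 ± 0.29 CPM in IR+CF-2, 20.3 ± 3.35 CPM in IR and 6.86 ± 1.01 CPM in Con (SD, n = 3), without overlap between any 2 groups. It fell in IR+CF-2 against IR by 2.44 ± 0.19 on the log2 scale (adjusted p = 0.0034) and rose in IR against Con by 1.56 ± 0.19 (adjusted p = 0.0227). The call between IR+CF-2 and IR held in 19 of 20 alternatives, with changes from -2.59 to -2.24. It was lost with the Hoxa13 term, where the change was -2.48 (adjusted p = 0.913). The call in IR against Con was lost without IR 2, IR 3, Con 2, Con 3 or Con 4, with changes from 1.39 to 1.66 over the alternatives. Its call in IR+CF-2 against Con was lost without IR+CF-2 1, IR+CF-2 3, Con 2 or Con 3. In the list as a whole, the 8 that rose in IR+CF-2 against Con became 1 without Con 2 or Con 4, 2 without IR+CF-2 1 or 3 and 4 without Con 3, and the 3 that fell became 0 or 1 without these libraries. The 3 that rose in IR against Con became 0 without Con 2, Con 3, Con 4, IR 2 or IR 3. They became 1 when IR+CF-2 3 was left out, 2 for IR+CF-2 1 and 9 for IR+CF-2 2. Calls over all genes in IR against Con went from 616 to 3085 without IR+CF-2 2. Cdk4 in IR+CF-2 against Con was called without each library in turn.

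No Wnt or R-spondin ligand, receptor, inhibitor, cytoplasmic regulator, nuclear cofactor or cadherin partner, 0 of 91 tested, was called by edgeR in IR against Con or in IR+CF-2 against IR, beside 3.21% and 0.302% of all genes. An unadjusted p under 0.05 was found for 18 of the 91 in IR against Con, beside 23.9% of all genes, and for 23 in IR+CF-2 against IR, beside 14.6%. DESeq2 called 4 in IR against Con, beside 11.9% of all genes, and 11 in IR+CF-2 against IR, beside 5.18%. Without IR+CF-2 2, edgeR called 10 in IR against Con and 1 in IR+CF-2 against IR, and without IR 4 it called 3 in IR against Con. Over all genes these fits called 3085, 597 and 1191 in the same order. With all libraries edgeR called 616 genes in IR against Con and 58 in IR+CF-2 against IR. In IR+CF-2 against Con edgeR called 14 of the 91, beside 19.2% of all genes, and 3 without Con 3, Con 4 or IR+CF-2 1, 4 without Con 2, 5 without IR+CF-2 3 and 9 without IR 3. Each of the 14 had the same direction in all 20 alternatives. Against Con, the R-spondin Rspo3, which strengthens Wnt signals, rose in IR+CF-2 (9.04 ± 1.68 against 2.91 ± 0.91 CPM, edgeR adjusted p = 0.0378) and Wnt11 fell (0.783 ± 0.254 against 2.49 ± 0.51 CPM, adjusted p = 0.0336), 1 of 13 ligands each way. Of 17 receptors, 3 Frizzleds fell, Fzd5 to 78.6 ± 8.24 CPM in IR+CF-2 against 248 ± 9.80 CPM in Con (-1.66 ± 0.26, adjusted p = 0.0092), Fzd8 by 1.04 (adjusted p = 0.0111) and Fzd3 by 1.71 (adjusted p = 0.0146). The calls for Fzd5 and Fzd8 held without each library in turn. Fzd1 and the co-receptor Lrp5 rose, by 1.27 ± 0.29 (adjusted p = 0.0207) and 0.63 ± 0.12 (adjusted p = 0.0149). For Fzd5 the IR level lay between, at 130 ± 56.0 CPM, with -0.93 ± 0.25 against Con (adjusted p = 0.0737).

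Of 13 secreted or membrane inhibitors 1 rose in IR+CF-2 against Con, Sfrp1, which binds Wnt proteins (79.9 ± 3.02 against 26.9 ± 12.4 CPM, edgeR adjusted p = 0.0248). Its change against IR, where it had 30.1 ± 12.6 CPM, was 1.41 ± 0.37 (adjusted p = 0.154), and all 13 estimates against Con were above 0. Of 22 cytoplasmic regulators 1 fell, Btrc, the ubiquitin ligase subunit that recognises phosphorylated β-catenin (15.7 ± 1.69 against 22.2 ± 1.25 CPM, adjusted p = 0.0275). Of 19 nuclear cofactors, Cby1, Cdc73 and Ctbp2 rose by 0.42 to 0.49. The acetyltransferase gene Crebbp and Tle5 fell by 0.46 and 0.56 (adjusted p from 0.0229 to 0.0477 for the 5). Over all genes 19.2% were called in IR+CF-2 against Con. Rspo3 and Sfrp1 are known products of stromal cells, and summed fibroblast markers averaged 2206 CPM in IR+CF-2, 960 CPM in IR and 976 CPM in Con. The part of these cells in either change was not tested.

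The genes nearest to the threshold in the lists without a call were as follows in IR against Con. Wls, which carries Wnt proteins to the cell surface, gave -0.30 ± 0.16 (edgeR adjusted p = 0.28), the receptor Fzd8 -0.75 ± 0.18 (adjusted p = 0.0549), the secreted inhibitor Dkk2 -1.99 ± 0.71 (adjusted p = 0.139) and Csnk1g1, a CK1 kinase, 0.34 ± 0.10 (adjusted p = 0.0801). Pygo2, which links β-catenin to chromatin, gave 0.31 ± 0.09 (adjusted p = 0.0837). For IR+CF-2 against IR the values were 1.02 ± 0.29 for Wnt6 (adjusted p = 0.169), -1.15 ± 0.33 for Fzd3 (adjusted p = 0.17), 1.93 ± 0.42 for the Wnt-binding inhibitor Frzb (adjusted p = 0.0903) and -1.10 ± 0.35 for Cxxc4, an inhibitor of Dishevelled (adjusted p = 0.205). The corepressor Tle3 gave -0.64 ± 0.14 (adjusted p = 0.0979). Among 7 cadherin partners, which hold β-catenin at junctions, 0 passed in any comparison. Over all genes 3.21% passed in IR against Con, 0.302% in IR+CF-2 against IR and 19.2% in IR+CF-2 against Con. The smallest adjusted p of the 7 was that of the p120 catenin gene Ctnnd1 in IR+CF-2 against IR (78.2 ± 5.78 against 106 ± 16.5 CPM, adjusted p = 0.173).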

How the data were processed

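RNA was measured by paired-end sequencing of poly(A) RNA. HISAT2, featureCounts and DESeq2 are named as tools, and GRCm38 and mm10 as builds, in the submitters' processing notes. Their versions, the annotation and the strand setting are not given in the sources. Per the file headers the deposited table holds a raw count and an FPKM value per gene and library. The FPKM equals count over library total and a whole gene length, to within 0.01 bases, for 32497 genes.

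The quasi-likelihood F-test of edgeR 4.0.16 (R 4.3.3) was run on raw counts with filterByExpr, TMM scaling and robust = TRUE, in 1 fit of 9 libraries by group. Of 33539 genes 19174 were tested, all 10 members included, and 14365 left out. Tests were 2-sided, with Benjamini-Hochberg adjustment over all tested genes of a comparison at 0.05. The pipeline was tested on simulated data. In a library 3 counts are 0.0677 to 0.0871 CPM, which covers counting error only. Replicates are separate mice per the labels' group sizes.

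The members and the gene lists were chosen with earlier results of these data known. Named are the 10 members, genes of the pathway lists that passed, and, where fewer than 2 passed, those with the smallest adjusted p, though not all of these are printed. Alternatives were scaling by RLE or by the upper quartile, the absence of a filter, a filter of 1 CPM in 3 libraries, DESeq2 1.42.0, limma-voom (limma 3.58.1), fits of the compared groups only, a block for the library number, an adjusted p under 0.01, and leaving out each library. Added after seeing the data were robust = FALSE, leaving out IR 4 and IR+CF-2 2 together, and a position term (log2 CPM of Hoxa13). Coordinates come from GENCODE M21 on GRCm38. Promoter bases come from RefSeq.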

Additional observations from a re-analysis of the deposited data

How the results depend on the processing

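Settings that moved a count of calls past 1.5-fold are given here, against 616, 58 and 3677 genes called in IR against Con, IR+CF-2 against IR and IR+CF-2 against Con and 2, 0 and 4 members. In IR against Con the genes called were 1 at an adjusted p under 0.01, 277 with RLE scaling, 302 with upper quartile scaling, 339 with no filter, 2285 with DESeq2, 176 with limma-voom, 2307 with the compared groups alone, 4717 without IR 4 and IR+CF-2 2 and 47 with the position term. The members were 0 at 0.01, with RLE or upper quartile scaling, with limma-voom and with the position term, and 1 with no filter. Of the calls 73.7% were higher, against 62.5% with RLE, 55.0% with upper quartile scaling and 31.9% with the position term. In IR+CF-2 against IR the genes were 5 at 0.01, 121 with no filter, 994 with DESeq2, 6 with the compared groups alone, 480 without both libraries and 0 with the position term. In IR+CF-2 against Con they were 342 at 0.01, 7838 without both libraries and 6 with the position term, and the members 0 at 0.01 and with the position term. Of these calls 58.5% were higher, against 49.5% with upper quartile scaling and 46.1% with the replicate block. Leaving out a library gave 1 to 3085, 5 to 597 and 685 to 6721 genes and 0 to 3, 0 to 1 and 0 to 6 members in these comparisons. Of the 19 other targets 0 to 13 and 1 to 11 rose in IR against Con and IR+CF-2 against Con, and of the 20 MYC targets 0 to 18 and 3 to 18. The cause was not tested.

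The labels give no meaning to equal library numbers. All 7 pairs of equal number correlated above 0 (0.0356 to 0.239) but 4 above 0.1, and 14 of 20 other pairs below 0. Of 8 libraries 3 correlated best with their own number. With the number as a replicate block, 944, 6 and 462 genes and 2, 0 and 1 members were called, and Ccnd1 in IR+CF-2 against IR gave -0.40. The block also gave, in IR+CF-2 against Con, 0 calls among other targets (9 without it), 0 among proliferation genes (11), 5 among MYC targets (17), 1 among cyclin D partners (11) and 1 among upstream genes (14). In IR against Con it gave 8 (7), 5 (2), 13 (5), 3 (3) and 2 (0) in the same order.

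Only changes that were not called turned sign. Upper quartile scaling gave -0.012 for Gsk3b and -0.033 for Tcf7l2 in IR against Con. The compared groups alone gave 0.019 for Myc in IR+CF-2 against IR. The position term gave 0.0023 for Axin1 and 0.073 for Myc in IR+CF-2 against IR, and 0.041 for Ctnnb1 and 0.049 for Axin1 in IR+CF-2 against Con. Without both libraries Lef1 gave 0.0039 in IR+CF-2 against Con. Leaving out a library gave -0.056 to 0.14 for Tcf7l2 between IR and Con. Between IR+CF-2 and IR it gave -0.22 to 0.023 for Tcf7l2, -0.29 to 0.21 for Myc and -0.24 to 0.40 for Ccnd1. For IR+CF-2 against Con it gave -0.099 to 0.036 for Axin1, -0.16 to 0.027 for Tcf7l2 and -0.67 to 0.045 for Lef1. Depth limits Lef1, with 6 to 32 counts per library, which the stricter filter removed, and 3 mice per group limit the rest.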
